A study of Mus musculus with 8 samples.

Results

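The genes described here bring newly made secretory proteins into the endoplasmic reticulum (ER) and carry them between the ER and the Golgi in coated vesicles. They were chosen by symbol alone, as the protein-coding genes of the signal recognition particle (SRP) and its receptor, the Sec61 translocon with Sec62 and Sec63, the translocon-associated protein complex (TRAP, the Ssr genes), the signal peptidase complex, the COPII and COPI coats, the Tmed (p24) family and the Sec22 proteins. The rule found 61 of the 21627 protein-coding genes in the count table. Of these, 59 passed the filter on low counts and were tested among 11929 genes. The other 2, Srp54b and Tmed11, had no count in any library. Of the Srp54b transcript in windows of 75 bases, 69.7% also occurs at another place in the genome, which leaves its absence uncertain.

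Paneth cells, the granule-filled epithelial cells of the crypt base, were isolated from mouse small intestine by FACS, and their poly(A) RNA was sequenced. The 8 libraries came from 4 samples of mice transgenic for diphtheria toxin (genotype DT TG, here TG) and from 4 wild type samples (WT), and the title of the series speaks of depleted mature Paneth cells. Diphtheria toxin is a bacterial protein that stops translation inside a cell by inactivating elongation factor EF2. The study describes its sorted Paneth cells as taken from individual C57BL/6J mice, but the labels do not say so for each library, so that the p-values below measure the spread between these samples. Neither the promoter of the toxin transgene nor the age of the mice was stated in the labels or the methods read here. The sorted TG cells are those that were left to sort, and whether they carried the toxin was not checked. In such bulk samples, fewer cells of a type and less RNA per cell cannot be told apart.

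Secretory proteins carry a signal peptide that SRP recognises as it leaves the ribosome, and SRP docks at its receptor on the ER membrane. The chain then passes through the Sec61 channel with the help of TRAP, and the signal peptidase complex removes the signal peptide. Folded cargo leaves the ER in COPII vesicles, while COPI vesicles return proteins from the Golgi. The p24 proteins are cargo receptors in both kinds of vesicle, and Sec22b is a SNARE by which such vesicles fuse. Paneth cells make large amounts of secreted alpha-defensins and lysozyme, so this route carries much of what they produce.

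Total counts lay between 13107397 and 16218434 per library, and levels below are normalised CPM, that is, CPM taken over library sizes scaled by TMM factors. The 4 Y-linked genes examined had no count in replicates 1 and 2 of either group and between 897 and 1564 counts in replicates 3 and 4 of both, so each group holds 2 libraries of each kind. Of 10 Paneth cell markers, 3 were lower in TG, namely Mmp7, Ang4 and Mptx2 (log2 fold changes -0.59, -0.57 and -1.35). All 10 together, the lysozyme gene Lyz1 included, summed to 225373 to 293764 normalised CPM in TG and 212739 to 301663 in WT. Of 14 tested enterocyte markers, 7 were higher in TG and all 14 were fitted above 0, while limma voom called 4 higher and DESeq2 11 of the 15 listed. The 15 summed to 171 to 326 normalised CPM in TG and 87.7 to 156 in WT. The part of these marker levels in the results below was not tested.

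Many of the translocation and vesicle genes were lower in the TG libraries, by modest amounts. At an adjusted p below 0.05, 29 of the 59 tested members were lower in TG, which is 49.2% against 9.65% of all tested genes, and 1 was higher, against 8.26% of all tested genes. The lower members had fallen by between 18.1% and 39.1% of their fitted WT level. Fitted changes were below 0 for 51 members and above 0 for 8. The median log2 fold change of the members was -0.30, beside 0.01 over all tested genes.

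Added together, the 61 genes gave 6725, 5922, 7013 and 7541 normalised CPM in the TG replicates 1 to 4, and 8264, 8325, 7921 and 9182 in the WT replicates. Every TG library lay below every WT library in this sum, with means of 6800 ± 676 and 8423 ± 537 (mean ± SD, 4 libraries each), so that the TG mean was 19.3% lower. This separation held with TMM factors and not with total counts only, a scaling tried on the sums after their values were seen. Scaled in that way, the sums were 6945, 6429.6, 7671 and 7258 CPM in TG and 6980.4, 8479, 8710.5 and 8221 in WT, so that TG replicates 3 and 4 lay above WT replicate 1 and the TG mean was 12.6% lower. Taken gene by gene with TMM factors, all 4 TG libraries lay below all 4 WT libraries for 25 of the 59 members, or 42.4%, against 12.0% of all tested genes. The reverse held for 1 member, Sec23a, against 10.0% of all tested genes. With total counts only, the TG libraries lay below the WT libraries for 8 members (Srprb, Sec61a1, Ssr4, Spcs1, Sec23ip, Sar1a, Tmed5 and Tmed4), or 13.6% against 3.91% of all tested genes, and above them for 1, again Sec23a, against 11.7%. Where groups are said below to overlap or to be apart, the levels are those with TMM factors. TG replicate 2 gave the lowest TG value for 47 members, and TG replicate 4 gave the highest for 36. On the WT side, replicate 4 was the highest for 35 members.

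**Figure D1:**
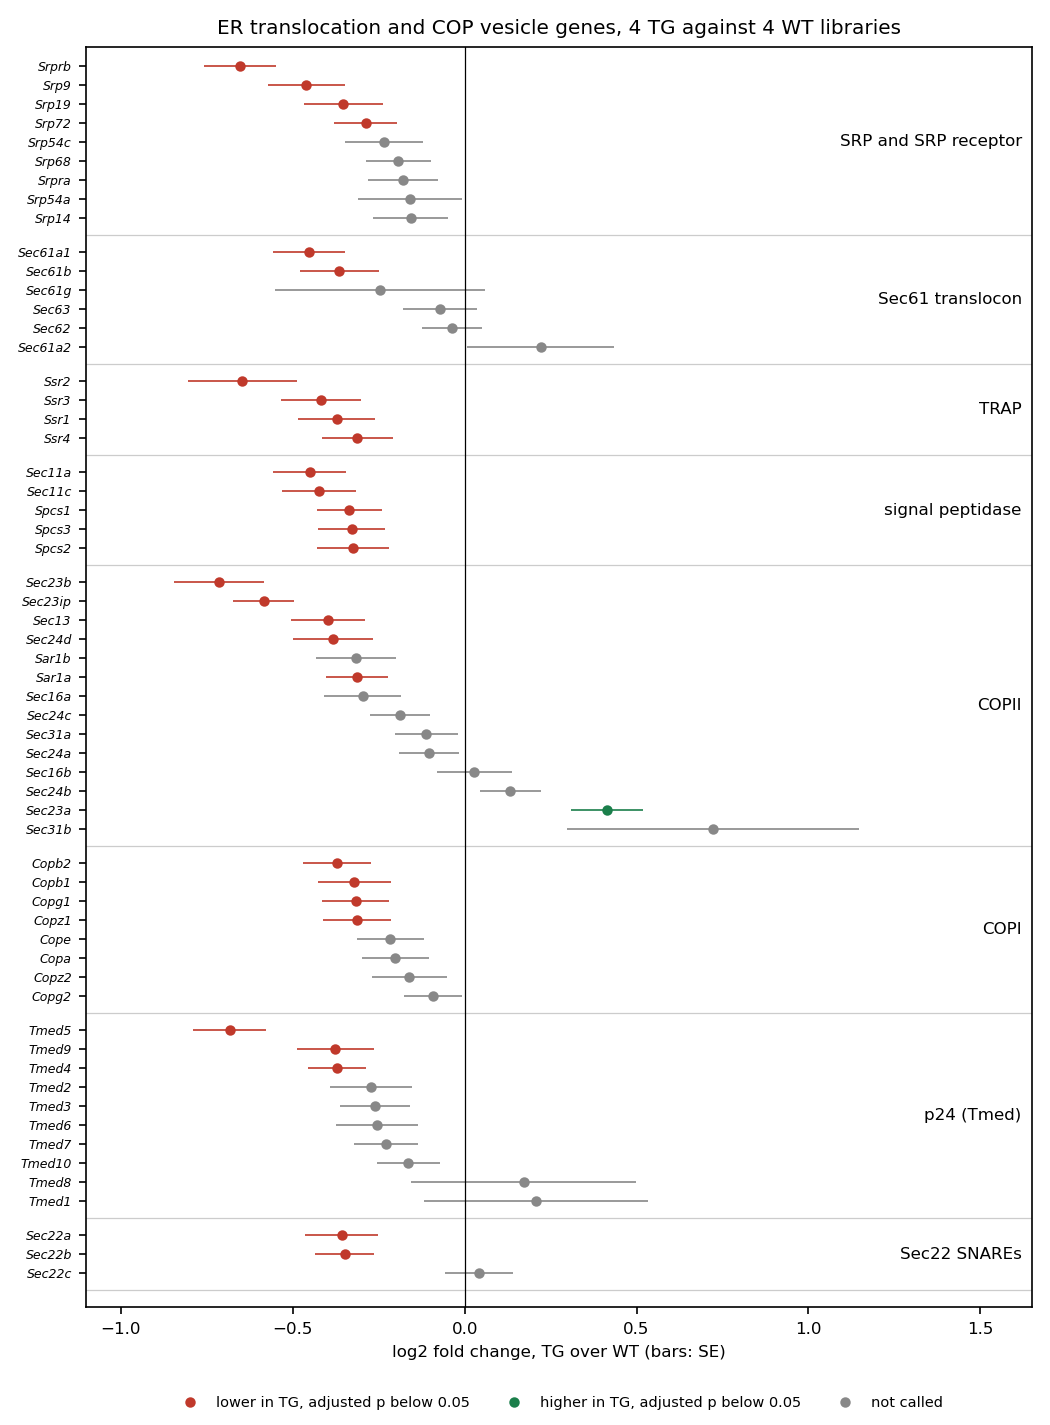
Log2 fold change of TG over WT (x axis) for the 59 tested genes (y axis), grouped by role, with bars for the SE and colours for the call. Red points (29 genes, lower in TG) appear in each role group, and all TRAP and signal peptidase genes are red, while the only green point (higher in TG) is Sec23a.

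The number of calls depended on how the libraries were scaled and on single libraries. When libraries were scaled by total counts only, 4 members remained lower, namely Srprb, Sec23b, Sec23ip and Tmed5 and thus no TRAP, signal peptidase or COPI gene, which is 6.78% of the members against 2.20% of all genes. That scaling moved the median of all genes to 0.12, and the members' median stayed 0.31 below it, as it was with TMM factors. Without TG replicate 1 or without TG replicate 2, 9 members were lower, against 4.58% and 4.72% of all genes. Without WT replicate 4 there were 11 against 7.04% of all genes, and without TG replicate 3 there were 19 against 7.53%. Of the 30 members called in either direction, 7 kept their call in each of the 8 fits with 1 library left out. The calls of Srprb, Sec23b and Tmed5 held in all 21 alternative settings tried.

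Splitting the libraries by their Y-linked counts left 2 against 2. Among libraries without such counts, 14 members were lower in TG, or 23.7% against 5.29% of all genes, and among libraries with them 4 were lower (Srprb, Ssr2, Sec23b and Tmed5), or 6.78% against 0.865%. The difference between these fits was tested with an interaction term in edgeR. It passed for 0 of 59 members, with 0 at an unadjusted p below 0.05, and the smallest adjusted p was 0.884 for Sec13. Over all 11929 genes it passed for 3, or 0.0251%, with 684 at an unadjusted p below 0.05, from 2 libraries of a kind in each group.

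**Figure D2:**
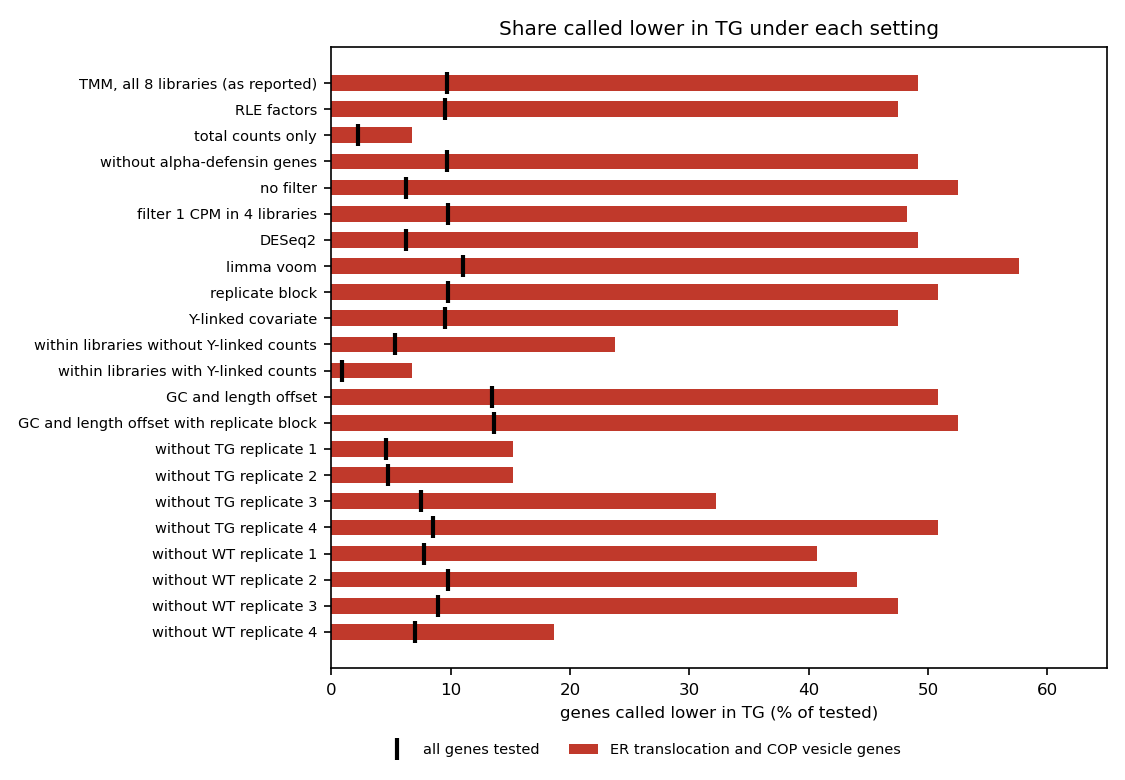
Percentage of tested genes called lower in TG (x axis) under the reported setting and each alternative (y axis), as bars for the ER translocation and COP vesicle genes and black ticks for all genes tested. The bar falls from 49.2% to 6.78% with total counts only and within libraries with Y-linked counts, and each bar is longer than its tick.

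Of the SRP and SRP receptor genes, 4 of the 9 tested were lower in TG. The leading one was Srprb (ENSMUSG00000032553, GRCm39 chr9:103065219-103079347, minus strand), the membrane-anchored beta subunit of the SRP receptor. Srprb stood at 56.2, 52.1, 70.9 and 70.6 normalised CPM in TG and at 93.8, 98.0, 96.8 and 104 in WT. The groups were well apart, and the TG libraries spread more than the WT libraries. The log2 fold change of Srprb was -0.65 (SE 0.10, adjusted p = 0.00150).

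The particle's own proteins moved less. Srp9, which with Srp14 forms the part of the particle that slows translation, stood at 41.2, 34.1, 42.2 and 43.4 normalised CPM in TG and at 53.95, 55.5, 45.7 and 66.2 in WT, a log2 fold change of -0.46 (SE 0.11, adjusted p = 0.0138). No TG library reached the lowest WT library. Near-copies elsewhere in the genome leave the Srp9 count uncertain, since 21.7% of its transcript in windows of 75 bases also occurs at another place. Srp72, which binds the RNA of the particle, was lower by 0.29 on the log2 scale with groups that did not overlap. Its call was lost in 6 of the 8 fits with 1 library left out, that without TG replicate 2 included, with adjusted p up to 0.132. Srp19, another RNA-binding subunit, was lower by 0.35 with overlapping groups. The Srp19 call was likewise lost in 6 of these 8 fits, with adjusted p up to 0.152.

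The alpha subunit of the receptor did not follow its partner past the test. Srpra, the most abundant gene of this group per transcript length, stood at 273, 253, 273 and 308 normalised CPM in TG and at 332, 319, 265 and 338 in WT. The groups overlapped because WT replicate 3 lay among the TG values (log2 fold change -0.18, SE 0.10, adjusted p = 0.231). The other 4 tested genes of this group had log2 fold changes from -0.24 to -0.16 and were not called.

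Of the 6 genes of the Sec61 translocon, 2 were lower in TG, Sec61a1 and Sec61b. Sec61a1 (ENSMUSG00000030082, GRCm39 chr6:88480561-88495899, minus strand) encodes the channel-forming alpha subunit. Its levels were 433, 375, 467 and 501 normalised CPM in TG and 608, 604, 563 and 653 in WT. Each WT library was above each TG library, and the log2 fold change was -0.45 (SE 0.11, adjusted p = 0.00997). Sec61b, the small beta subunit, stood at 95.7, 83.7, 101 and 124 in TG and at 140.4, 119, 119 and 142 in WT. TG replicate 4 overlapped the WT range, and the log2 fold change was -0.36 (SE 0.12, adjusted p = 0.0415).

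Sec61g, the gamma subunit of the channel, was scarce in these counts at 1.19 to 2.40 normalised CPM, and its groups overlapped (log2 fold change -0.25, SE 0.31, adjusted p = 0.611). The Sec61a1 paralog Sec61a2 was also scarce, at 4.11 to 6.51 normalised CPM in TG and 3.28 to 6.20 in WT, with a log2 fold change of 0.22 (SE 0.21, adjusted p = 0.499). Per kilobase of transcript, Sec61a1 averaged 191 normalised CPM in WT and Sec61a2 1.17, so that Sec61a1 made up 99.4% of the pair in WT and 99.0% in TG. Sec62 and Sec63, which assist translocation after translation and link the channel to the chaperone BiP, complete this group. Sec62 had a log2 fold change of -0.04 (SE 0.09) and Sec63 one of -0.07 (SE 0.11), and neither was called.

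All 4 TRAP genes were lower in TG, with a median log2 fold change of -0.39. TRAP sits beside the Sec61 channel and helps chains with weak signal peptides to enter. Ssr2 (ENSMUSG00000041355, GRCm39 chr3:88483056-88497417, plus strand), the beta subunit, stood at 116, 92.1, 155 and 156 normalised CPM in TG and at 196, 168, 224 and 223 in WT. The groups were apart although TG replicates 3 and 4 came near WT replicate 2, and the log2 fold change was -0.65 (SE 0.16, adjusted p = 0.0176).

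Ssr3, the gamma subunit, was the most abundant TRAP gene per transcript length. It stood at 459, 394, 501 and 554 normalised CPM in TG and at 589, 638, 599 and 722 in WT, a log2 fold change of -0.42 (SE 0.12, adjusted p = 0.0236). Ssr1, the alpha subunit, had fallen by 0.37 on the log2 scale, again without overlap. Ssr4, the delta subunit, had fallen by 0.31 with an adjusted p of 0.0497, close to the threshold, and TG replicate 4 lay above WT replicate 3. The Ssr4 call was kept in 2 of the 8 fits with 1 library left out. Together the TRAP genes summed to 986 normalised CPM in TG (SD 145) and to 1320.4 in WT (SD 94.9), with 4 libraries in each group. The ranges of this sum were apart with TMM factors and overlapped with total counts only, where WT replicate 1 at 1066 CPM lay below TG replicate 3 at 1163.

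All 5 signal peptidase genes were lower as well, within a narrow band of -0.45 to -0.33 on the log2 scale. Without TG replicate 1 or without WT replicate 4, only Sec11a and Sec11c of this group were called. Without TG replicate 2, only Sec11a was. Sec11a and Sec11c encode alternative catalytic subunits, and Spcs1, Spcs2 and Spcs3 the accessory ones. Sec11c, at 246 normalised CPM per kilobase in WT the most abundant of all 61 genes per transcript length, stood at 166, 129, 173 and 163 normalised CPM in TG and at 209, 227, 181 and 230 in WT. The groups did not overlap, and the log2 fold change was -0.42 (SE 0.11, adjusted p = 0.0164).

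Sec11a stood at 45.6, 34.6, 47.5 and 45.8 normalised CPM in TG and at 55.2, 58.8, 56.2 and 66.9 in WT. TG replicate 2 was far below the other TG libraries, and the call also held without it (log2 fold change -0.45 over all 8 libraries, SE 0.11, adjusted p = 0.0110). The balance of the 2 catalytic subunits was close between the groups. Sec11c made up 82.9% of the pair per transcript length in TG (SD 0.291) and 82.5% in WT (SD 1.24), with 4 libraries each (exact permutation test, two-sided p = 0.686). Of the accessory subunits, Spcs1 and Spcs3 were apart between the groups, and for Spcs2 TG replicate 4 reached above WT replicate 3.

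**Figure D3:**
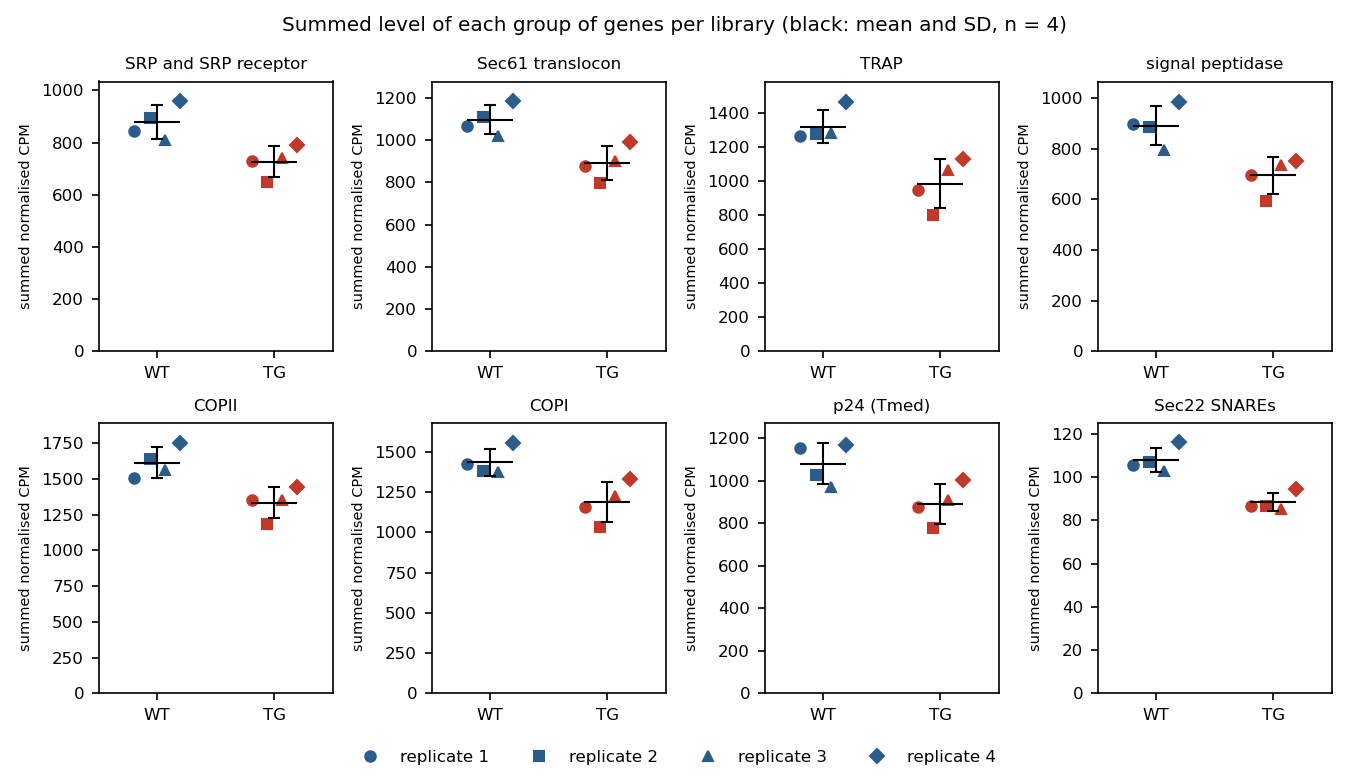
Summed normalised CPM (y axis, from 0) of each role group in every library, by genotype (x axis), with a marker for each replicate and the mean and SD in black. TG replicate 2 is the lowest point in 7 of the panels, and with the TMM factors plotted only the p24 panel has overlapping TG and WT libraries, where TG replicate 4 at 1000.9 lies above WT replicate 3 at 970.1. With total counts only, which is not plotted, the libraries overlap in all 8 role groups.

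The COPII genes were the most mixed group, with 5 of 14 lower and 1 higher. Sec23b (ENSMUSG00000027429, GRCm39 chr2:144391970-144432684, plus strand), a subunit of the inner coat that triggers GTP hydrolysis by Sar1, showed the farthest fall of any member. It stood at 93.9, 76.1, 117 and 111 normalised CPM in TG and at 138.0, 162, 167 and 187 in WT. The 2 ranges were separate, and the log2 fold change was -0.71 (SE 0.13, adjusted p = 0.00335).

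Its paralog Sec23a (ENSMUSG00000020986, GRCm39 chr12:59005128-59058914, minus strand) went the other way. Sec23a stood at 23.7, 22.7, 20.6 and 20.1 normalised CPM in TG and at 14.5, 18.6, 15.9 and 16.3 in WT. All TG libraries were above all WT libraries, with a log2 fold change of 0.41 (SE 0.11, adjusted p = 0.0162). This call was lost without TG replicate 1 or without TG replicate 2 and among the libraries of either Y-linked class alone, and the fitted change stayed between 0.34 and 0.52 in all 21 alternatives.

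Because a share within a library does not depend on how libraries are scaled, the paralogs were also compared as shares of their sum per transcript length. Sec23a made up 14.2, 16.4, 10.3 and 10.6% of Sec23a plus Sec23b in TG and 6.48, 7.01, 5.89 and 5.42% in WT. The group means were 12.9% and 6.20%, and no library of one group fell within the other (exact permutation test, two-sided p = 0.0286, the smallest that 4 against 4 allows, and 0.200 after adjustment over 14 pairs). The sum of both genes was 121 normalised CPM in TG and 180 in WT, since Sec23b was the more abundant in every library.

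**Figure D4:**
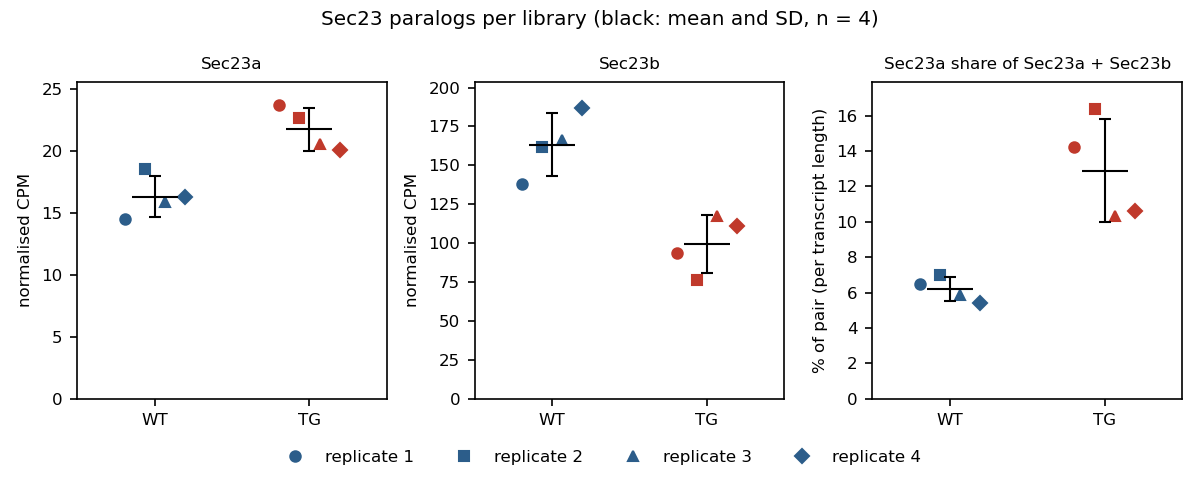
Normalised CPM of Sec23a and Sec23b and the share of Sec23a in the pair per transcript length (y axes, from 0) in each WT and TG library, with the mean and SD in black. Sec23a is higher and Sec23b lower in TG without overlap, and the Sec23a share is above 10% in each TG library and at most 7.01% in WT.

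Sec23ip, which binds Sec23 at ER exit sites, stood at 43.7, 43.0, 46.2 and 52.7 normalised CPM in TG and at 72.5, 73.4, 64.3 and 67.95 in WT. The groups were far apart relative to their spread, with a log2 fold change of -0.58 (SE 0.09, adjusted p = 0.00120). Sec13, an outer coat subunit, had fallen by 0.40 on the log2 scale, Sec24d, a cargo-binding inner coat subunit, by 0.38, and Sar1a, the GTPase that starts coat assembly, by 0.31. For each of these genes the groups did not overlap.

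The remaining COPII genes were not called. Sar1b, the second Sar1 GTPase, had nearly the same fitted change as Sar1a, at -0.31 (SE 0.12, adjusted p = 0.0740), and its share of the Sar1 pair was 36.5% in both groups. Sec16a, the scaffold of ER exit sites, had a log2 fold change of -0.30 (SE 0.11, adjusted p = 0.0772). Its range overlapped because WT replicate 1, at 172 normalised CPM, lay within the TG values of 159 to 188.

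Sec31a, the outer coat partner of Sec13 and the most abundant COPII gene per transcript length, stood at 328, 293, 302 and 326 normalised CPM in TG and at 312, 329, 332 and 378 in WT. Its groups overlapped widely (log2 fold change -0.11, SE 0.09, adjusted p = 0.422). Among the cargo-binding Sec24 genes, Sec24a had a log2 fold change of -0.10, Sec24b of 0.13 and Sec24c of -0.19, each not called. Sec16b had one of 0.03. Sec31b, at 0.223 to 1.19 normalised CPM over all libraries, gave the uncertain value of 0.72 (SE 0.42, adjusted p = 0.250).

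Of the COPI coatomer genes with a Cop symbol, 4 of 8 were lower in TG. All 8 were fitted below 0, except that Copg2 came to 0.028 on the log2 scale with total counts only. The coatomer gene Arcn1 lies outside the symbol rule and was not called (log2 fold change -0.18, SE 0.09, adjusted p = 0.175). Copb2, the beta-prime subunit that binds retrieval signals on cargo, stood at 211, 183, 234 and 245 normalised CPM in TG and at 282, 272, 278 and 298 in WT. The groups were separate, with a log2 fold change of -0.37 (SE 0.10, adjusted p = 0.0198). Copb1, Copg1 and Copz1, the beta, gamma and zeta subunits, had fallen by 0.32, 0.32 and 0.31 on the log2 scale, each without overlap. No COPI gene was called in the fit without TG replicate 1, that without TG replicate 2 or that without WT replicate 4. Over the fits with 1 library left out, adjusted p reached 0.151, for Copb1.

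Copa, the alpha subunit and the most abundant COPI gene per transcript length, stood at 360, 322, 361 and 412 normalised CPM in TG and at 401, 415, 397 and 458 in WT. TG replicate 4 lay inside the WT range (log2 fold change -0.20, SE 0.10, adjusted p = 0.167). The second isoforms Copg2 and Copz2 had log2 fold changes of -0.09 and -0.16 and were not called. Copg2 made up 6.97% of the gamma pair in TG and 5.97% in WT, with overlapping values, and Copz2 44.6% and 41.9% of the zeta pair.

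Of the p24 genes, 3 of 10 tested were lower in TG. Tmed5 (ENSMUSG00000063406, GRCm39 chr5:108254230-108280568, minus strand), a p24 protein of the gamma class, stood at 25.0, 18.8, 27.0 and 25.0 normalised CPM in TG and at 40.4, 37.4, 38.4 and 37.9 in WT. The WT libraries were tightly grouped and well above the TG libraries, with a log2 fold change of -0.68 (SE 0.11, adjusted p = 0.00132). Its relative Tmed7 had a log2 fold change of -0.23 (SE 0.09, adjusted p = 0.104). Tmed5 made up 7.39% of the pair per transcript length in TG and 9.93% in WT, again without overlap between libraries (exact permutation test, two-sided p = 0.0286, and 0.200 after adjustment over 14 pairs). The Sec23 and Tmed5 pairs were the only 2 of the 14 tested whose shares did not overlap.

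Tmed9 and Tmed4, 2 p24 proteins of the alpha class, had fallen by 0.38 and 0.37 on the log2 scale. Tmed4 stood at 58.8, 56.5, 60.2 and 58.2 normalised CPM in TG and at 84.2, 75.4, 68.1 and 74.7 in WT, and its TG libraries were the more tightly grouped (SE 0.08, adjusted p = 0.00870). Tmed6, per transcript length the most abundant p24 gene and in WT second only to Sec11c among all members, stood at 166, 140.0, 159 and 192 normalised CPM in TG and at 225, 174, 166 and 218 in WT. Those groups overlapped (log2 fold change -0.25, SE 0.12, adjusted p = 0.154). Tmed3 had a log2 fold change of -0.26 and was not called, and Tmed1 was scarce, at 0.975 to 3.16 normalised CPM.

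Of the Sec22 genes, Sec22b and Sec22a were lower. Sec22b stood at 58.5, 58.6, 57.8 and 65.9 normalised CPM in TG and at 72.6, 76.6, 72.1 and 85.4 in WT, without overlap (log2 fold change -0.35, SE 0.09, adjusted p = 0.0138). Sec22a had fallen by 0.36 on the log2 scale (adjusted p = 0.0324) at lower levels of 11.5 to 13.5 normalised CPM in TG and 15.04 to 17.4 in WT. Sec22c stood at 14.6 to 16.02 normalised CPM in TG and 13.99 to 15.5 in WT, and was not called.

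Of the 29 members not called, 22 were fitted below 0 and 7 above, at log2 fold changes from -0.31 to 0.72, and the TG and WT libraries overlapped for each of them. Near-copies elsewhere in the genome make some counts uncertain. For 9 members over 5% of transcript windows of 75 bases occur at another place in the genome, and how reads with several alignments were counted is not known. Among them are Srp9, Srpra, Sec61b and Sec61g, and the shares were 69.5% for Tmed2 and 51.1% for Tmed10. For Srp54a, Srp54b and Srp54c they were 68.6%, 69.7% and 50.3%.

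Other genes of the same route, taken from lists of known components outside the symbol rule, were also lower in TG. Of 98 tested, 33 were lower, with a median log2 fold change of -0.23, beside 9.65% of all tested genes and their median of 0.01. With total counts only 6 were lower, beside 2.20% of all genes. Without TG replicate 1, TG replicate 2 or WT replicate 4 there were 13, 14 and 18, beside 4.58%, 4.72% and 7.04% of all genes. By edgeR 0 were higher, with 0 higher at an unadjusted p below 0.05, and DESeq2 and limma voom also called 0 higher. By list, 7 of 12 oligosaccharyltransferase subunits were lower, 12 of 29 tethers and SNAREs, 6 of 28 other COPII, COPI and cargo receptor genes, and 8 of 29 other ER targeting and translocon partners.

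Hspa5, which encodes the ER chaperone BiP that helps to draw chains through the translocon, stood at 666, 529, 798 and 834 normalised CPM in TG and at 948, 1330, 1403 and 1859 in WT. The ranges were apart and the WT libraries widely spread, with a log2 fold change of -0.97 (SE 0.19, adjusted p = 0.00661), farther from 0 than that of any called member. Nomo1, a translocon partner, had fallen by 0.37 on the log2 scale.

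Ostc and Ddost, subunits of the oligosaccharyltransferase that adds glycans to chains at the translocon, had each fallen by 0.48 on the log2 scale. Mcfd2, which with Lman1 forms a cargo receptor of COPII vesicles, had fallen by 0.54 and Kdelr2, a receptor that returns ER proteins in COPI vesicles, by 0.45. The SNARE Ykt6 had fallen by 0.39 and the Golgi stacking protein Gorasp2 by 0.43. For these 6 genes and for Nomo1, the TG and WT libraries did not overlap.

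**Figure D5:**
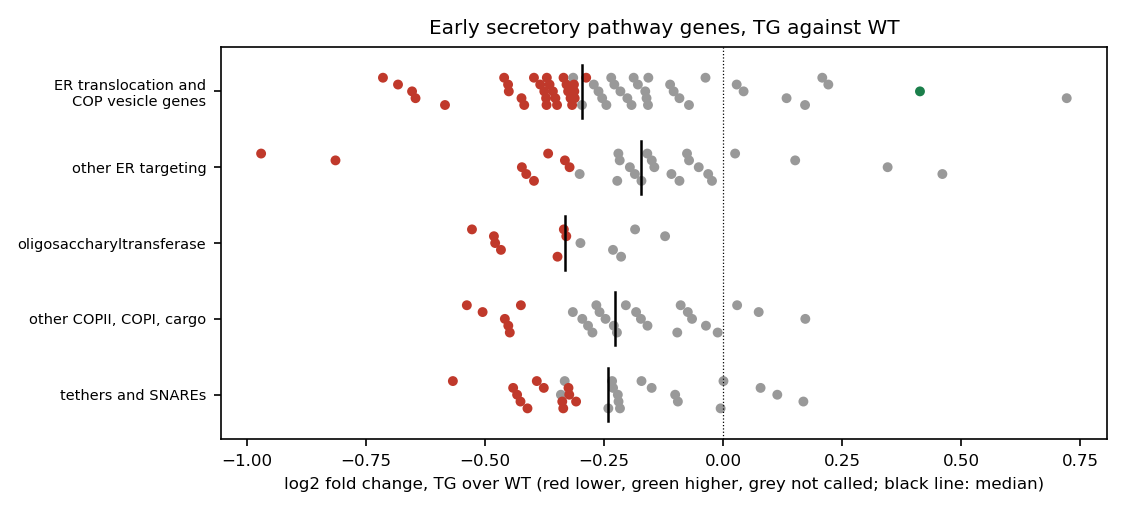
Log2 fold change of TG over WT (x axis) of each tested gene in the ER translocation and COP vesicle group and in 4 lists of other early secretory pathway genes (y axis), coloured by call, with the median as a black line. All 5 medians lie below 0, at -0.30 for the members and between -0.33 and -0.17 for the other lists, and Hspa5 is the leftmost point.

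Promoters of the members were searched for the DNA elements through which factors of the unfolded protein response act on ER genes, on both strands of 300 bases, the 250 before the start and the first 50 from it. The start was that of 1 transcript per gene, the Ensembl canonical one in GENCODE on GRCm39. For Sec24a and Srp19 it lies well inside the gene and not at its outermost 5′ end. The ER stress response element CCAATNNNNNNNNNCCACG was found in 0 of 61 member promoters and 0.125% of 21627 protein-coding promoters. Its shorter form ATTGGNCCACG was found in 1 member promoter, that of Tmed2, and 0.0694% of all. The core TGACGTGG of the unfolded protein response element was found in 3 member promoters (Srp19, Sec24d and Sec24a) and 0.721% of all. Of these 3 members 2, Srp19 and Sec24d, were lower in TG, beside 49.2% of all tested members. The printed stretches show the match in capitals, for a called and an uncalled Sec24 gene and for the single match to the shorter form.
Sec24d: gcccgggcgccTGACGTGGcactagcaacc
Sec24a: gcgggagtccgTGACGTGGcaggcgagtcc
Tmed2: cacgtgatcATTGGCCCACGtcgaagggct
These run 5′ to 3′ in the direction of the gene. That of Sec24d lies on GRCm39 at chr3:123061108-123061137, plus strand, with the match 16 to 23 bases from the start. That of Sec24a lies at chr11:51647423-51647452, minus strand, with the match 5 to 12 bases from the start. The Tmed2 stretch lies at chr5:124678642-124678671, plus strand, upstream of the start. Sec24d was lower in TG, at 178, 140.1, 194 and 209 normalised CPM against 219, 234, 221 and 265 in WT, without overlap. Sec24a, with the same core, stood at 57.9, 57.9, 56.1 and 66.8 in TG and 63.1, 69.7, 59.5 and 64.1 in WT and was not called, nor was Tmed2, at a log2 fold change of -0.27 (SE 0.12, adjusted p = 0.129). A match describes the letters in this window only, and no member promoter held more than 1 of the 3 elements.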

How the data were processed

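Libraries of FACS-sorted mouse Paneth cells had been made with a stranded poly(A) kit. The authors deposited 1 table of raw read counts per gene for 4 TG and 4 WT libraries. The submitters' processing notes name STAR 2.7.0a, FastQC 0.12.0, DESeq2 and mm39 without roles. The counting tool is not given in the sources used here. Symbols and positions came from GENCODE M39 on GRCm39, which matched 54749 of 55414 IDs.

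The deposited counts were tested with edgeR 4.0.16 in R 4.3.3 (robust quasi-likelihood fit, TMM factors, default filter by group, all 8 libraries, group as the only term), with Benjamini-Hochberg adjustment over 11929 genes at 0.05. Log2 fold changes are TG over WT. Levels between genes were compared per kilobase of the canonical transcript, and paralog shares by exact permutation over 70 assignments. The fit was tested on simulated data.

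The members, the lists and the tests were chosen with earlier results of these data known. Sec61g, Sec62, Sec63, Sec22c, Srp54a, Srp54c, Tmed2 and Tmed10 are members, and Arcn1 a pathway gene, named after their values were seen. The other tested members and pathway genes described are called members (at most 6 per role group), the most abundant member of each role group, both genes of each tested paralog pair, the 3 uncalled members with the largest change, and the 2 called genes with the smallest p of each other pathway list. Marker lists covered Paneth, goblet, enterocyte, stem, enteroendocrine, tuft and immune cells. Camlg of the other pathway lists was not matched.

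Replicates were checked for duplicated libraries by chi-square over genes, and all 8 were kept as separate. Same-numbered libraries deviated together with correlations of 0.0762, 0.0666, 0.286 and 0.231, and differently numbered ones with -0.188 to 0.235. The same-numbered value was the highest for TG replicates 3 and 4 and not for TG replicates 1 and 2. The numbers were not taken to pair the samples, and a replicate block was tried beside the reported fit. Alternatives were other size factors, filters and tools (DESeq2 1.42.0, limma voom 3.58.1), a replicate block, a Y-linked covariate and subsets, a GC and length offset (mgcv 1.9.3) and each library left out.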

Additional observations from a re-analysis of the deposited data

Results flagged for a closer look

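For the 47 members picked for naming by the criteria given in the methods, among 94 groups of 4 values, 5 held a library far from the other 3 by Dixon's criterion, where chance flags about 1 in 20 groups, or 4.7 here. WT replicate 4 was high for Copg1, at 228.8 normalised CPM against 209.9 to 211 in the other WT libraries. TG replicate 4 was high for Sar1b, at 41.36 against 31.03 to 32.6, and for Sec22b, at 65.91 against 57.8 to 58.6. TG replicate 2 was low for Sec11a, at 34.55 against 45.6 to 47.5, and for Srp72, at 116 against 135 to 139. Without that library the call of Srp72 was lost, while that of Sec11a held.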

How the results depend on the processing

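The 29 members called lower in TG became 4 with total counts only, 14 within libraries without Y-linked counts and 4 within libraries with them, and 9 to 30 with 1 library left out. In the same order, the 33 other pathway genes called lower became 6, 18 and 2, and 13 to 35. The 1 member called higher became 0 within either class of libraries, and 0 to 1 with 1 library left out. These subsets hold fewer samples, and otherwise the cause was not tested. With total counts only, chosen for these values after they were seen, the libraries of 8 members in place of 25 lay lower in TG without overlap, and the summed level of all members was 12.6% lower in TG in place of 19.3%. Other size factors, filters and tools, a term for Y-linked counts and an offset for GC and length gave 28 to 34 lower members. The replicate block gave 30, keeping all 29 and adding Sar1b. The members' median log2 fold change ran from -0.39 to -0.19 over all alternatives. Paralog pairs with shares that did not overlap numbered 2, but 9 and 8 within libraries without and with Y-linked counts, where 2 libraries a group are left, and 2 to 6 with 1 library left out. The fitted changes of 11 uncalled members turned sign in at least 1 alternative, 5 of them with total counts only (Sec62 and Sec63 among these), and 5 of the 11 are among those picked for naming. Copg2, Sec24a and Sec31a came to 0.028, 0.0070 and 0.0006 on the log2 scale with total counts only. Sec16b came to -0.083 within libraries without Y-linked counts, to -0.018 with the GC and length offset, to -0.014 with that offset and the replicate block, and to between -0.037 and 0.12 with 1 library left out. Tmed1, at 0.21 (SE 0.33) with all libraries, came to -0.016 within libraries with Y-linked counts and to between -0.039 and 0.38 with 1 library left out. For genes under about 3 normalised CPM, counting error limits the fold change.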

Other observations

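Markers of other cell types were measured beside these genes. The 10 goblet cell markers summed to 11328 to 15192 normalised CPM in TG and to 13452 to 16115 in WT. EdgeR, DESeq2 and limma voom each called 0 of them, and 1 had an unadjusted p below 0.05 in edgeR. The same held for the 9 tested tuft cell markers, with 0 called by each tool and 1 at that unadjusted level. Of 10 stem and progenitor markers, Axin2 and Slc12a2 were higher in TG and Smoc2 was lower. Of 5 tested enteroendocrine markers, Tac1 was lower. Immune markers summed to at most 1.58 normalised CPM in any library, and 2 of 10, Cd3g and Adgre1, had no count.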
